A study of Sus scrofa with 24 samples.

Results

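Amino acids, their derivatives and the amine transmitters enter and leave muscle cells through membrane carriers of the solute carrier (SLC) superfamily. The genes described here are all those of the expression table whose Ensembl pig gene ID maps to a symbol of the SLC1A, SLC3A, SLC6A, SLC7A, SLC36A, SLC38A or SLC43A families. The rule found 47 of the 22861 genes in the table, which carry 46 symbols: 15 of SLC6A, 11 of SLC7A, 9 of SLC38A, 7 of SLC1A, 2 each of SLC3A and SLC36A, and 1 of SLC43A. SLC7A1 has 2 gene IDs, ENSSSCG00000029456 and ENSSSCG00000009324, and family members with no matched ID, such as SLC7A5, SLC36A1 and SLC43A1, are not analysed here. The values come from mRNA sequencing of longissimus dorsi (LD), the large muscle along the back, in 24 male pigs with 1 library per animal. The 4 groups of 6 were purebred Iberian newborns (IB, labelled postnatal day 1), newborns of Iberian sows and Duroc boars (IBxDU, the same age label), IB pigs at 4 months and IBxDU pigs at 4 months. All dams were Iberian sows managed alike, and both genetic types ate the same growing diet. The newborns of each type came from fewer litters than animals, so some were littermates, and the p-values treat each animal as independent.

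The families differ in what they carry and in what drives the transport. SLC38A carriers take up small neutral amino acids such as glutamine and alanine together with sodium, as system A (SLC38A1, SLC38A2, SLC38A4) or as the glutamine-preferring system N (SLC38A3, SLC38A5). SLC7A members either move cationic amino acids on their own (SLC7A1, SLC7A2, SLC7A3) or are light chains that reach the plasma membrane only when bound to a heavy chain of the SLC3A family, with SLC3A2 (4F2hc) serving SLC7A7, SLC7A8 and SLC7A10, and SLC3A1 (rBAT) serving SLC7A9. SLC1A holds the glutamate transporters and the neutral exchangers SLC1A4 and SLC1A5, SLC6A holds the sodium and chloride coupled carriers of transmitters, taurine, creatine and neutral amino acids, SLC36A carries small amino acids such as proline, and SLC43A2 (LAT4) lets branched-chain amino acids cross by facilitated diffusion. In muscle, leucine and arginine entry feeds protein synthesis through the kinase complex mTORC1, and glutamine is made in the fibres and released to other tissues.

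Each value below is RPKM, reads per kilobase of gene corrected for the total of the library, after each library was divided by a scaling factor, and levels of different genes are compared on this per-length scale. The library totals, recovered from the deposited values, ran from 19989846 to 35894968, and the smallest and largest factors were 1.02 and 1.63 in newborns and 0.511 and 0.976 at 4 months. Scaling bears on every comparison of ages: the median of all genes tested was 0.10 on the log2 scale at birth minus 4 months with it and 0.91 on the values as deposited. In 8 libraries 99.3 to 99.5% of the library total fell in the listed genes, against 88.0 to 96.2% in the other 16. These are 1 of 6 IB newborns, 4 of 6 IBxDU newborns, 1 of 6 IB pigs and 2 of 6 IBxDU pigs at 4 months. One transporter followed this split completely. SLC7A9 (ENSSSCG00000022948), the b0,+ light chain known from kidney and intestine, was between 1.02 and 3.52 RPKM in the 8 libraries with the higher share and between 0 and 0.0272 in the other 16. Of 12441 genes tested, 409 (3.29%) likewise had all 8 libraries above the other 16, and what made these libraries differ is not given in the sources used here. SLC38A1 followed it within each age, with 1.36 to 3.17 RPKM in the 5 newborn libraries of the higher share against 0.258 to 1.35 in the other 7, and 0.591 to 1.04 against 0 to 0.0820 in 3 and 9 libraries at 4 months. Results for these and other members are therefore given with the 16 lower-share libraries alone where this changes them.

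The muscle label was checked against 9 fibre genes, of which 3 had a matched ID, with a summed level of 20374 to 62883 RPKM in newborns and 68001 to 250585 at 4 months, most of it ACTA1. On scaled values they moved in different directions with age, since ACTA1 (-1.81 ± 0.22) and DES (-0.70 ± 0.13) were called higher at 4 months and MYH7, the slow myosin, higher at birth (5.14 ± 0.50). Markers of other cells moved with age as well. Of the fibroblast list 3 of 4 genes tested were called higher at birth, with a summed level of 588 to 2010 RPKM against 429 to 783 and PDGFRA listed at 0 in all libraries. In the endothelium and pericyte list 4 of 6 were called higher at birth (75.6 to 107 against 44.5 to 88.2 RPKM), as were 4 of 4 in the Schwann cell and neuron list (27.4 to 233 against 7.78 to 24.5 RPKM) and 2 of 3 in the erythroid list (161 to 2069.7 against 46.3 to 247 RPKM, KLF1 at 0 in all 4-month libraries). Both adipocyte genes tested, PLIN1 and CIDEC, were called higher at 4 months (1.6 to 30.8 against 8.91 to 43.5 RPKM). Of the macrophage and T cell list CD68 and CD2 were called higher at 4 months (4.86 to 12.2 against 6.84 to 19.6 RPKM), of 2 epithelial genes KRT18 was called higher at birth, and the 1 platelet or mast cell gene tested was not called. In whole muscle, fewer cells of a type and less RNA per cell cannot be told apart, and the part of these cell types in the differences below was not tested.

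Transporter transcripts were dominated by a few genes. SLC3A2 (ENSSSCG00000022404), the common heavy chain, had the highest mean at both ages, 62.5 ± 46.1 RPKM at birth and 182 ± 58.8 at 4 months (SD, n = 12). SLC38A2 and SLC6A8 followed at birth with 44 ± 13.2 and 35.4 ± 14.2 RPKM, and their ranges overlapped with each other and with that of SLC3A2. SLC6A8, the creatine transporter (60.7 ± 9.49 RPKM), and SLC7A8, the LAT2 light chain (42 ± 13.2 RPKM), stood next at 4 months, again with overlapping ranges. Within families the leading gene took 71.1% of the SLC1A sum at birth (SLC1A5), 96.4% of SLC3A (SLC3A2), 78.6% of SLC6A (SLC6A8), 51.6% of SLC38A (SLC38A2) and 74.8% of SLC36A (SLC36A4). In SLC7A no single ID took more than 26.0% of the sum at birth (SLC7A7), though the 2 IDs of SLC7A1 held 41.9% together, whereas SLC7A8 alone held 69.2% at 4 months against 7.53% at birth. The sum of SLC38A was 85.3 ± 17.1 RPKM at birth and 57.4 ± 6.56 at 4 months, and that of SLC7A was 30.9 ± 8.52 and 60.7 ± 13.2 (SD, n = 12 each). As deposited the SLC38A sum was 114.5 RPKM at birth and 43.4 at 4 months, while the SLC7A sums were nearly level at 41.7 and 45.1 RPKM. The sum over all 47 genes was 261 ± 58.1 RPKM at birth and 397 ± 70.9 at 4 months, but 352 ± 84.5 and 292 ± 14.3 on the values as deposited, and the SLC6A sum turned in the same way (45.1 and 61.8 RPKM scaled, 62.1 and 45.9 as deposited).

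The first comparison asked how the transporters differed between newborn and growing pigs, over both genetic types, with 12 libraries at each age. A gene was called at a limma p no higher than 0.01 with a fold no lower than 1.5, and only genes with a group mean over 0.5 RPKM as deposited were tested. Of the 28 transporter genes tested, 16 were called higher at birth and 6 higher at 4 months, beside 24.5% and 20.9% of all 12180 genes tested (45.4% in either direction). The 2 ages did not overlap for 6 transporter genes, 5 higher at birth and 1 higher at 4 months, beside 6.88% and 8.65% of all genes (15.5% together). An adjusted p under 0.05 was reached by 23 of the 28, beside 65.6% of all genes. A total of 9 genes passed the filter through the newborn groups alone, and 7 of these are among the 16. They include SLC6A12, SLC6A13 and SLC36A4, which are among the 5 higher at birth without overlap. The filter favoured that order for them. Of the 19 that passed it at 4 months too, 9 were higher at birth and 6 at 4 months. The shares of all genes given above are for the 12180 under the wider filter. No share under the narrower filter is given for these counts or for the family counts drawn from the 19. The median log2 difference of the 28, with the 9 that passed through the newborns alone among them, was 0.84, beside 0.10 for all genes tested. By family, birth was higher for 6 of 8 SLC38A genes tested, 4 of 5 SLC6A, 3 of 7 SLC7A (2 of them the IDs of SLC7A1), 1 of 3 SLC1A, 1 of 2 SLC3A and 1 of 2 SLC36A. Among the 19 over the filter at 4 months the counts were 5 of 7 SLC38A, 3 of 6 SLC7A, 1 of 3 SLC1A, 0 of 1 SLC3A and 0 of 1 SLC6A, since all 4 SLC6A genes higher at birth passed through the newborns alone. The genes higher at 4 months were SLC7A8, SLC7A2, SLC3A2, SLC38A3, SLC43A2 and SLC6A8, of which SLC7A8 and SLC3A2 kept their call on the values as deposited and the other 4 did not.

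**Figure D1:**
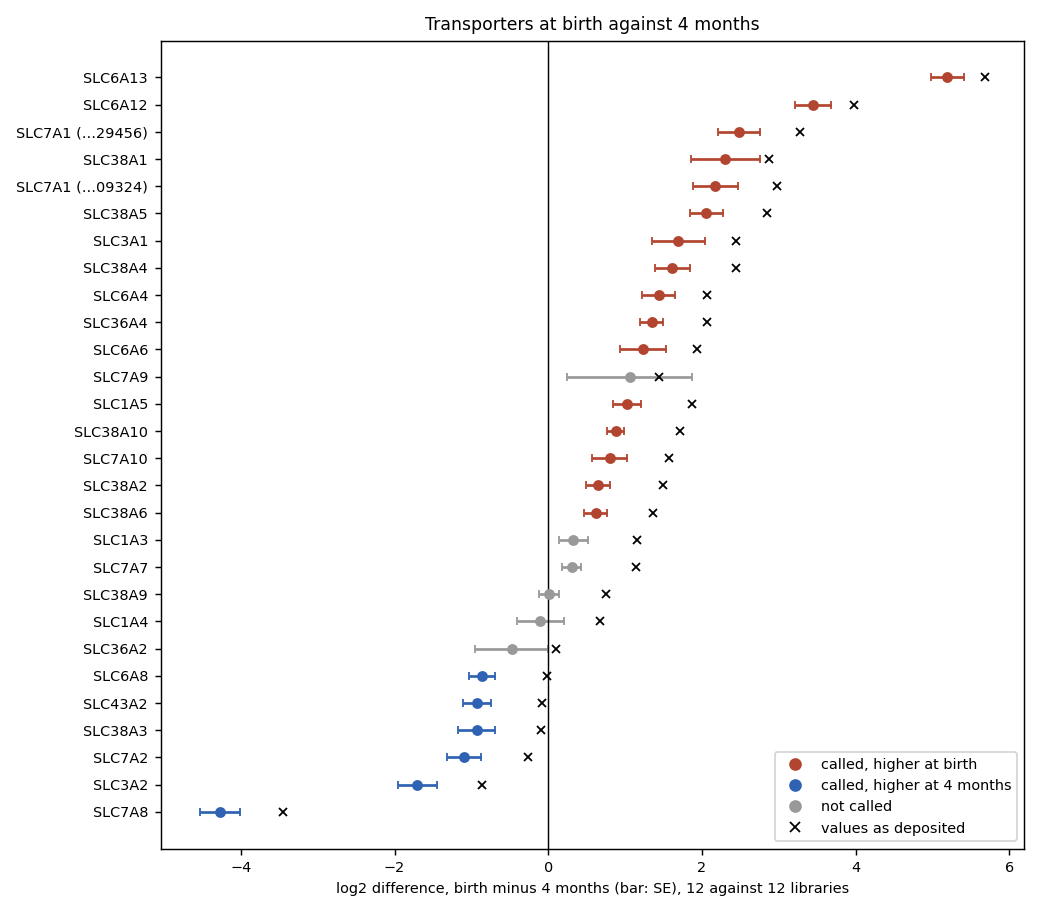
Log2 difference between birth and 4 months for the 28 transporter genes tested, on the log2(scaled RPKM + 0.1) scale, with points to the right of 0 higher at birth, bars giving the SE (12 against 12 libraries), colour giving the call and crosses the difference on the values as deposited. SLC6A13 stands at 5.20 and SLC7A8 at -4.27, and the crosses of SLC6A8, SLC43A2, SLC38A3 and SLC7A2 lie between -0.26 and -0.02.

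The widest shift towards 4 months was that of the LAT2 exchanger and its heavy chain. SLC7A8 (ENSSSCG00000002032) exchanges large neutral amino acids, and its lowest, median and highest values were 1.02, 2.7 and 5.9 RPKM in IB newborns, 0.745, 1.54 and 3.14 in IBxDU newborns, 24.8, 39.4 and 49.6 in IB pigs at 4 months and 21.6, 48.4 and 60.7 in IBxDU pigs at 4 months. Every 4-month pig was above every newborn, and the log2 difference of -4.27 ± 0.26 (SE), or 19.3-fold, had an adjusted p of 3.86e-13. It was wide in each subset, in the lower-share libraries (-4.11), in IB pigs alone (-3.82) and in IBxDU pigs alone (-4.73). SLC3A2, which binds SLC7A8 and other light chains, was at 41.8, 50.9 and 68.5 RPKM in IB newborns, 26, 35.7 and 189 in IBxDU newborns, 163, 206 and 237 in IB pigs at 4 months and 92.8, 141 and 289 in IBxDU pigs at 4 months. The IB groups did not overlap, while 2 IBxDU newborns at 114 and 189 RPKM reached the 4-month range. The log2 difference was -1.70 ± 0.26 (3.26-fold, adjusted p = 2.28e-06). Of its other light chains measured here, SLC7A10 was called higher at birth and SLC7A7 was not called.

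Another 4 genes were called higher at 4 months, by 1.82- to 2.13-fold. SLC7A2 (ENSSSCG00000006987, CAT2), a cationic carrier that brings arginine into cells, was at 1.88, 4.2 and 7.01 RPKM in IB newborns, 1.57, 3.26 and 7.01 in IBxDU newborns, 4.72, 9.12 and 12.2 in IB pigs at 4 months and 6.6, 8.31 and 9.45 in IBxDU pigs at 4 months. The ages overlapped, with 8 newborns below every 4-month pig, and the log2 difference was -1.09 ± 0.22 (adjusted p = 9.87e-05). SLC43A2 (ENSSSCG00000024108, LAT4) was at 7.51, 13.7 and 17.6 RPKM in IB newborns, 6.61, 9.09 and 13.9 in IBxDU newborns, 13.2, 16.5 and 27.8 in IB pigs at 4 months and 18.1, 25.1 and 35.6 in IBxDU pigs at 4 months. Here too 8 newborns were below all 4-month pigs, and the difference was -0.93 ± 0.18 (adjusted p = 7.82e-05), with -1.44 in IBxDU pigs alone and -0.41 and no call in IB pigs alone. SLC6A8 (ENSSSCG00000012771) supplies muscle with creatine for the phosphocreatine store, and its values were 24, 35.2 and 61.2 RPKM in IB newborns, 16.9, 26.2 and 46.5 in IBxDU newborns, 55.4, 64.1 and 71 in IB pigs at 4 months and 42.7, 56.2 and 75.7 in IBxDU pigs at 4 months. Part of the newborns reached into the 4-month range and 8 were below all of it, and the difference was -0.86 ± 0.17 (adjusted p = 8.57e-05). SLC38A3 (ENSSSCG00000011397, SNAT3) was at 10.6, 14.3 and 20.3 RPKM in IB newborns, 3.14, 7.53 and 9.67 in IBxDU newborns, 17, 18.8 and 25.8 in IB pigs at 4 months and 11.6, 14.7 and 27.8 in IBxDU pigs at 4 months. Its difference was -0.93 ± 0.24 (adjusted p = 0.00156), but -0.56 with no call in the lower-share libraries. As deposited, the log2 differences of SLC7A2, SLC43A2, SLC6A8 and SLC38A3 were -0.26, -0.08, -0.02 and -0.09.

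Among the SLC6A genes the carriers of GABA, betaine, taurine and serotonin were higher at birth. All 4 passed the filter through the newborns alone, so the filter favoured this direction for them. SLC6A8, the only SLC6A gene over the filter at 4 months, was called higher at 4 months on scaled values. SLC6A13 (ENSSSCG00000030076, GAT2), which carries GABA and taurine, was at 1.97, 4.13 and 7.55 RPKM in IB newborns, 3.55, 6.1 and 7.42 in IBxDU newborns, 0, 0.0298 and 0.0771 in IB pigs at 4 months and 0, 0.0381 and 0.0647 in IBxDU pigs at 4 months. It rested on 104 to 668 reads in each newborn and on at most 4 in each 4-month pig, of which 4 were listed at 0, so that the ages did not overlap. The log2 difference was 5.20 ± 0.21 (adjusted p = 4.82e-16), a 36.6-fold change on the log2(RPKM + 0.1) scale that the added 0.1 RPKM holds down (7.23 with 0.01 RPKM). SLC6A12 (ENSSSCG00000000749, BGT1), the betaine and GABA carrier, lies next to SLC6A13 on chromosome 5 of the Sscrofa11.1 annotation, with 0 protein-coding genes between them. Its values were 0.965, 1.43 and 3.07 RPKM in IB newborns, 0.88, 1.79 and 5.2 in IBxDU newborns, 0.0194, 0.0423 and 0.0972 in IB pigs at 4 months and 0.049, 0.0746 and 0.173 in IBxDU pigs at 4 months, again with no overlap between ages. The difference was 3.45 ± 0.24 (4.61 with 0.01 RPKM added), with an adjusted p of 3.54e-12. SLC6A4, the serotonin transporter, averaged 0.757 ± 0.295 RPKM at birth and 0.218 ± 0.101 at 4 months (SD, n = 12, log2 difference 1.44 ± 0.22), and SLC6A6, the taurine transporter, 1.18 ± 0.754 and 0.376 ± 0.16 (1.24 ± 0.30, with no call in IBxDU pigs alone at 1.02). The Schwann cell and fibroblast markers given above were higher at birth as well, and their part in these 4 differences was not tested.

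**Figure D2:**
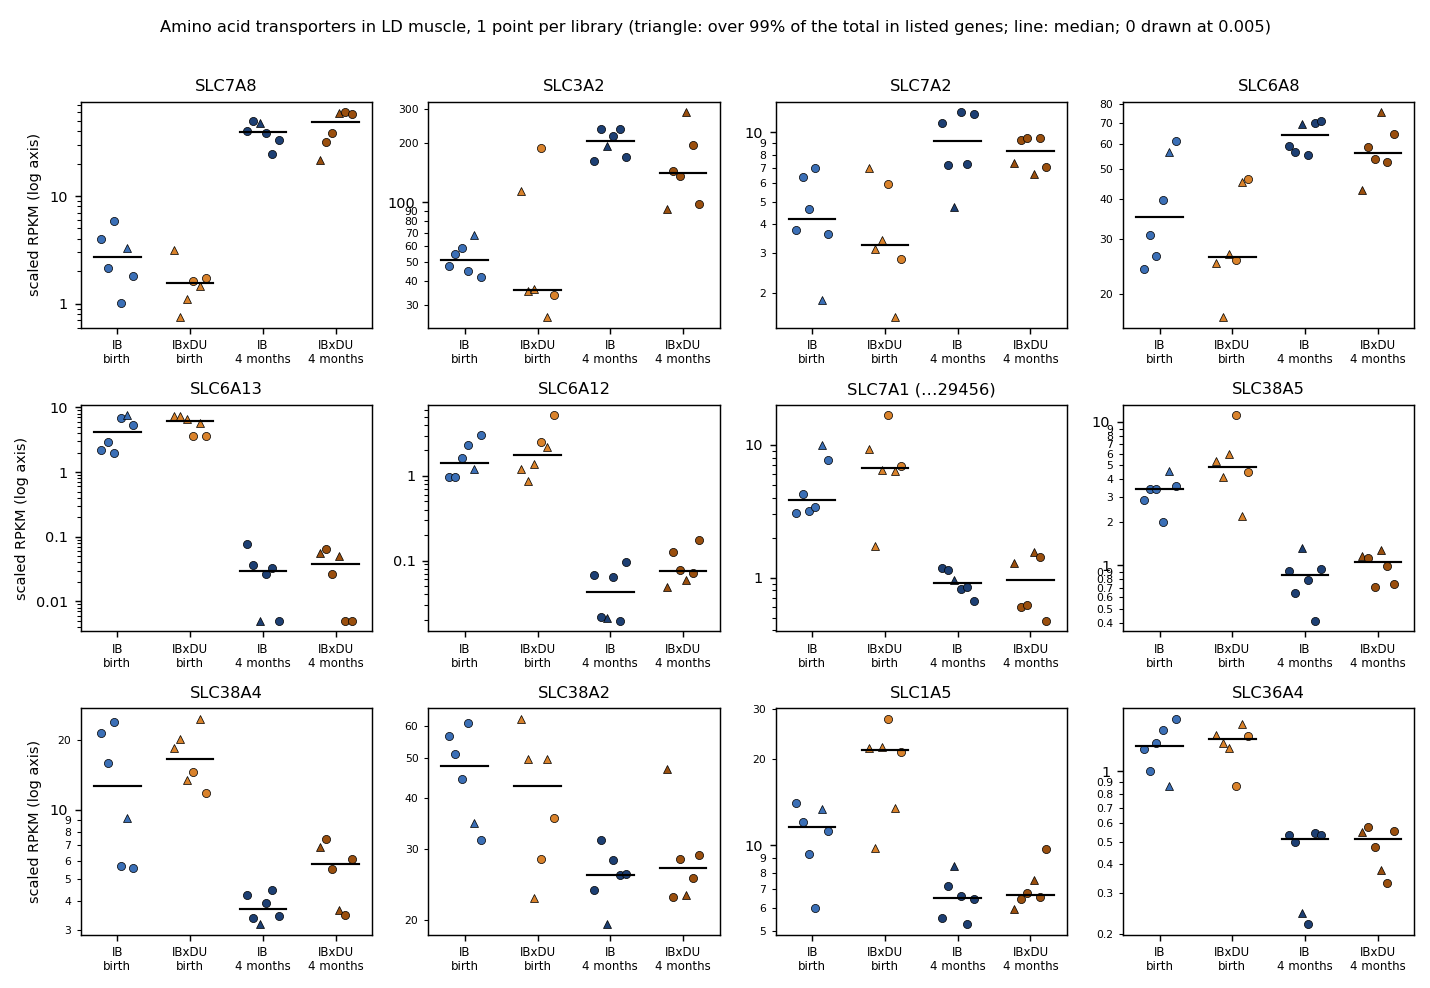
Scaled RPKM of 12 transporter genes on log axes, 1 point per library in each of the 4 groups of 6, with the median as a line, libraries of the higher share as triangles and values of 0 drawn at 0.005. SLC7A8 is at 0.745 to 5.90 in the newborns and 21.6 to 60.7 at 4 months, and SLC6A13 at 1.97 to 7.55 and 0 to 0.0771, whereas SLC3A2, SLC7A2 and SLC6A8 overlap between ages.

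The cationic carrier SLC7A1 (CAT1) was higher at birth, unlike its relative SLC7A2 on scaled values. Its first ID, ENSSSCG00000029456, was at 3.07, 3.85 and 9.98 RPKM in IB newborns, 1.74, 6.66 and 16.7 in IBxDU newborns, 0.668, 0.905 and 1.19 in IB pigs at 4 months and 0.473, 0.957 and 1.56 in IBxDU pigs at 4 months, and every newborn was above every 4-month pig. The log2 difference was 2.48 ± 0.28 (5.58-fold, adjusted p = 1.83e-08). The other ID, ENSSSCG00000009324, which the paper's own tables name SLC7A1, was at 2.18, 3.78 and 9.92 RPKM in IB newborns, 1.55, 7.21 and 16.2 in IBxDU newborns, 0.835, 1.14 and 1.69 in IB pigs at 4 months and 0.465, 1.09 and 1.51 in IBxDU pigs at 4 months. Its difference was 2.17 ± 0.30 (adjusted p = 4.94e-07), with 11 of 12 newborns above all 4-month pigs. The ratio of the second ID to the first was 0.712 to 1.81 over the 24 libraries, with a median of 1.03, and how the counting split reads between the 2 is not given in the sources used here, so their split is uncertain. All counts here take them as 2 genes, and as 1 gene 15 of 27 would be called higher at birth. SLC3A1 (ENSSSCG00000008449, rBAT), the heavy chain paired with SLC7A9 in kidney, was at 0.273, 1.76 and 6.53 RPKM in IB newborns, 0.827, 2.23 and 3.89 in IBxDU newborns, 0.351, 0.563 and 1.13 in IB pigs at 4 months and 0.153, 0.449 and 0.746 in IBxDU pigs at 4 months. A total of 9 newborns were above all 4-month pigs, and the difference of 1.70 ± 0.35 (adjusted p = 0.000136) was called in IBxDU pigs alone (2.15) and not in IB pigs alone (1.24), though this contrast was itself not called (interaction 0.92 ± 0.70, adjusted p = 0.592). SLC7A10 (Asc-1), a light chain for small neutral amino acids known from brain and fat, averaged 1.91 ± 0.956 RPKM at birth and 0.999 ± 0.373 at 4 months (difference 0.80 ± 0.23), and lost its call in the lower-share libraries (0.73) and in IBxDU pigs alone (0.67).

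Of the 8 SLC38A genes tested, 6 were called higher at birth, SLC38A3 was called higher at 4 months and SLC38A9 was not called. SLC38A5 (ENSSSCG00000025981, SNAT5), of system N like SLC38A3, was at 2.01, 3.42 and 4.55 RPKM in IB newborns, 2.2, 4.89 and 11.1 in IBxDU newborns, 0.411, 0.851 and 1.32 in IB pigs at 4 months and 0.71, 1.06 and 1.29 in IBxDU pigs at 4 months. All newborns were above all 4-month pigs, and the log2 difference was 2.06 ± 0.21 (4.16-fold, adjusted p = 6.15e-09), against a call in the other direction for SLC38A3 on scaled values. SLC38A4 (ENSSSCG00000026597, SNAT4), a system A carrier known from liver and placenta, was at 5.6, 12.6 and 24 RPKM in IB newborns, 11.7, 16.5 and 24.8 in IBxDU newborns, 3.18, 3.7 and 4.47 in IB pigs at 4 months and 3.49, 5.81 and 7.47 in IBxDU pigs at 4 months. Its difference was 1.62 ± 0.23 (adjusted p = 1.01e-06), and the 2 lowest newborns, both IB, overlapped with the 4-month pigs. SLC38A2 (ENSSSCG00000000808, SNAT2), the amino acid starvation-responsive system A carrier and the most abundant of the family, was at 31.5, 47.8 and 60.8 RPKM in IB newborns, 22.6, 42.7 and 62.4 in IBxDU newborns, 19.6, 25.9 and 31.5 in IB pigs at 4 months and 22.8, 26.9 and 46.9 in IBxDU pigs at 4 months. The ages overlapped widely and the difference was 0.64 ± 0.16 (1.56-fold, adjusted p = 0.000864). SLC38A1 (ENSSSCG00000000807, SNAT1) was at 0.258, 0.39 and 3.17 RPKM in IB newborns, 1.35, 1.39 and 2.75 in IBxDU newborns, 0, 0.0641 and 1.04 in IB pigs at 4 months and 0.0255, 0.05 and 0.658 in IBxDU pigs at 4 months. Its difference was 2.30 ± 0.45 (adjusted p = 7.41e-05) and 2.22 in the lower-share libraries, where it was called too, but it was not called in IB pigs alone (1.72), nor was SLC38A2 in IBxDU pigs alone (0.46). These 3 genes lie together on chromosome 5 of the Sscrofa11.1 annotation, SLC38A2 next to SLC38A4 and SLC38A1 with 1 gene between it and SLC38A2. The less characterised SLC38A10 averaged 7.52 ± 1.49 RPKM at birth and 4.03 ± 0.712 at 4 months (0.88 ± 0.11, 11 of 12 newborns above all 4-month pigs), and SLC38A6 1.11 ± 0.368 and 0.673 ± 0.142 (0.62 ± 0.15), a call that was lost in the lower-share libraries (0.37), in IB pigs alone (0.45) and without any 1 of 3 libraries (IBxDU newborns 412 and 427 and IB pig 907).

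In the SLC1A and SLC36A families 1 gene each was called. SLC1A5 (ENSSSCG00000003105, ASCT2), an exchanger that takes up glutamine, was at 6.01, 11.6 and 14 RPKM in IB newborns, 9.8, 21.6 and 27.8 in IBxDU newborns, 5.28, 6.55 and 8.43 in IB pigs at 4 months and 6, 6.7 and 9.67 in IBxDU pigs at 4 months. A total of 10 newborns were above all 4-month pigs, and the log2 difference was 1.03 ± 0.19 (2.04-fold, adjusted p = 3.01e-05). SLC36A4 (ENSSSCG00000024933, PAT4), a carrier of proline and tryptophan, was at 0.869, 1.28 and 1.68 RPKM in IB newborns, 0.867, 1.37 and 1.6 in IBxDU newborns, 0.221, 0.514 and 0.543 in IB pigs at 4 months and 0.331, 0.514 and 0.58 in IBxDU pigs at 4 months. All newborns were above all 4-month pigs, with a difference of 1.35 ± 0.15 (adjusted p = 1.58e-08). Of the 6 genes not called, SLC38A9, the lysosomal arginine sensor upstream of mTORC1, had the difference nearest to 0, with 0.681 ± 0.158 RPKM at birth and 0.672 ± 0.15 at 4 months and a 95% interval of the log2 difference of -0.26 to 0.28. SLC7A7 (y+LAT1) averaged 8.03 ± 1.85 and 6.42 ± 1.24 RPKM, SLC1A3 4.5 ± 1.77 and 3.48 ± 1.17, SLC1A4 1.49 ± 1.61 and 1.19 ± 0.353, and SLC36A2, a proline and glycine carrier, 0.435 ± 0.588 and 0.451 ± 0.286 at birth and at 4 months. Their intervals were 0.05 to 0.56 for SLC7A7, -0.06 to 0.72 for SLC1A3, -0.74 to 0.54 for SLC1A4, -1.45 to 0.50 for SLC36A2 and -0.61 to 2.74 for SLC7A9. In IB pigs alone SLC1A4 was called higher at 4 months (-0.79), while in IBxDU pigs alone its difference was 0.59 with no call. The interaction given below did not call this contrast. On the values as deposited SLC7A7, SLC1A3 and SLC38A9 would be called higher at birth, with differences of 1.14, 1.15 and 0.75, beside a median of 0.91 over all genes on that scale.

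The second comparison set the genetic types against each other in newborns, 6 against 6. Of 28 transporter genes tested, 1 was called higher in IBxDU (SLC1A3) and 1 higher in IB (SLC38A3), beside 4.21% of all 12290 genes tested (1.85% higher in IBxDU and 2.36% higher in IB). By limma none of the 12290 genes had an adjusted p under 0.05, while 18.7% had an unadjusted p under 0.05, as did 6 of the 28 transporter genes. The count of 2 became 4 without IB newborn 323 (SLC1A5 and SLC43A2 added), IB newborn 503 (SLC38A1 and SLC7A9) or IBxDU newborn 427 (SLC1A5 and SLC38A5). SLC38A3, which exports or takes up glutamine with sodium, was at 11.9, 20.3, 17.2, 16.5, 10.6 and 12 RPKM in the IB newborns and at 7.04, 8.28, 3.14, 8.02, 9.67 and 3.92 in the IBxDU newborns. All 6 IB newborns were above all 6 IBxDU newborns, an order that 0.732% of all genes tested shared, beside 0.513% with the reverse order and 1.24% in either direction. The log2 difference (IBxDU minus IB) was -1.20 ± 0.28 (2.3-fold), with a two-sided exact permutation p of 0.00216, the smallest that 6 against 6 allows, and an adjusted p of 0.102. It was -1.42 in the lower-share libraries, which hold 5 IB and 2 IBxDU newborns, -1.16 with a term for the kind of library, and -1.33 to -1.01 with each library left out.

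SLC1A3 (ENSSSCG00000016841, GLAST), a glutamate transporter known from glia, was at 3.58, 3.03, 2.78, 2.53, 4.45 and 2.66 RPKM in the IB newborns and at 4.44, 4.13, 7.37, 5.86, 7.64 and 5.5 in the IBxDU newborns. Only IB newborn 503, a higher-share library, reached into the IBxDU range, and 4 IBxDU newborns were above all IB newborns. The difference was 0.85 ± 0.19 (1.8-fold, exact permutation p = 0.00649, adjusted p = 0.102), 0.95 in the lower-share libraries and 0.73 with a term for the kind of library. Of the Schwann cell and neuron markers 0 of 4 tested were called between the types at birth, with summed levels of 31.4 to 105 RPKM in IB and 27.4 to 233 RPKM in IBxDU newborns, and of the macrophage and T cell markers CSF1R was called higher in IB (7.82 to 12.2 and 4.86 to 11.1 RPKM summed). ABCC9 of the endothelium and pericyte list was called higher in IB as well (-0.69 ± 0.21), 1 of 6 tested, with sums of 82.7 to 107 RPKM in IB and 75.6 to 99.8 in IBxDU newborns. Their part in the differences of SLC1A3 and SLC38A3 was not tested.

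Several transporters lay close to the limits. SLC38A1 was 0.878 ± 1.14 RPKM in IB and 1.78 ± 0.642 in IBxDU newborns (SD, n = 6), a log2 difference of 1.42 ± 0.47 with an exact permutation p of 0.0281. It became 0.75 with a term for the kind of library, and in the lower-share libraries it was called with 1.56, the 5 IB newborns being at 0.258 to 0.774 RPKM and the 2 IBxDU newborns at 1.35 each. SLC1A5 was 11 ± 2.96 RPKM in IB and 19.4 ± 6.54 in IBxDU newborns, a difference of 0.78 ± 0.27 (exact permutation p = 0.026) that 4 of 6 IBxDU newborns showed above every IB newborn. The 3 SLC1A genes tested were all higher on average in IBxDU newborns, by 0.78 to 0.94 on the log2 scale, though only SLC1A3 was called. The widest of these, SLC1A4, was at 2.79, 2.45 and 6 RPKM in IBxDU newborns 402, 425 and 426. The other IBxDU newborns were at 0.417 to 0.849 RPKM, within or below the IB range of 0.468 to 1.27 RPKM. SLC38A6 (0.50 ± 0.20, exact permutation p = 0.0152) became 0.23 with a term for the kind of library, and SLC7A9 (2.31 ± 1.14, 0.188 by the same permutation test) became -0.09. For the abundant SLC3A2 and SLC38A2 the 95% intervals of the difference were -0.87 to 0.97 and -0.76 to 0.33, and for SLC6A8 -0.99 to 0.28. SLC7A8 had a difference of -0.77 ± 0.39 with an interval of -1.62 to 0.08, and 5 of the 6 IBxDU newborns at or under 1.74 RPKM.

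**Figure D3:**
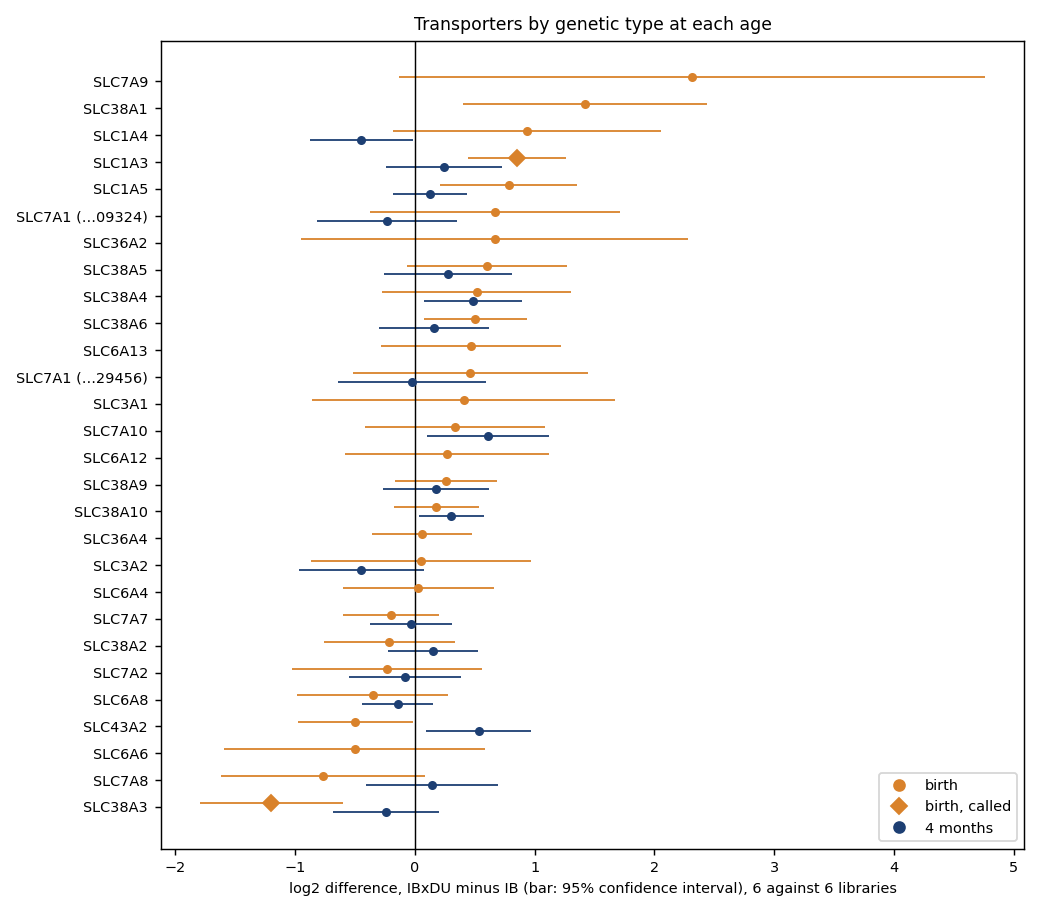
Log2 difference between IBxDU and IB (points to the right of 0 higher in IBxDU) for each transporter gene tested, with 95% confidence intervals, at birth (orange, 28 genes) and at 4 months (blue, 19 genes), 6 against 6 libraries each. The called genes, drawn as diamonds, are SLC38A3 at -1.20 and SLC1A3 at 0.85 at birth, and SLC43A2 has its points on opposite sides of 0 at the 2 ages.

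In the pigs at 4 months no transporter was called among 19 tested, beside 1.42% of all 10728 genes tested (0.997% higher in IBxDU and 0.419% higher in IB). An adjusted p under 0.05 was reached by 0.0932% of the 10728 genes and by none of the 19. No transporter had groups that did not overlap, beside 0.438% and 0.289% of all genes in the 2 directions (0.727% together). An unadjusted limma p under 0.05 was reached by 5 of the 19, beside 8.59% of all genes, and voom on the recovered reads called 1, SLC7A10. The count of 0 became 1 without IB pig 903 or IBxDU pig 702 (SLC43A2) or IBxDU pig 748 (SLC38A4), and 3 without IBxDU pig 732 (SLC7A10, SLC3A2 and SLC38A4). SLC43A2 averaged 18.1 ± 5.44 RPKM in IB and 26 ± 6.65 in IBxDU pigs (SD, n = 6), a log2 difference of 0.53 ± 0.20 with an exact permutation p of 0.0433, and in the lower-share libraries it was called with 0.70. SLC7A10 averaged 0.765 ± 0.209 and 1.23 ± 0.363 RPKM (0.61 ± 0.24, exact permutation p = 0.0325), with 4 of 6 IBxDU pigs above every IB pig, and was called in the lower-share libraries with 0.89. The others were SLC38A4 (0.49 ± 0.19), SLC38A10 (0.30 ± 0.13) and SLC1A4 (-0.45 ± 0.20), with exact permutation p values of 0.0411, 0.0195 and 0.0433. SLC38A3, called at birth, was 19.8 ± 3.31 RPKM in IB and 17.5 ± 6.54 in IBxDU pigs at 4 months (-0.24 ± 0.21, 95% interval -0.68 to 0.20), and SLC1A3 was 3.11 ± 0.676 and 3.85 ± 1.5 (0.24 ± 0.22, interval -0.24 to 0.72).

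Whether the effect of genetic type differed between ages was tested as an interaction (IBxDU minus IB at birth less the same at 4 months). None of the 28 transporters tested reached an adjusted p under 0.05, beside 3 of 12441 genes (0.0241%), and 4 had an unadjusted limma p under 0.05, beside 13.4% of all genes. SLC43A2 had the smallest p of them, with a difference of -1.03 ± 0.31 (adjusted p = 0.168 by limma). IB newborns averaged 13.6 ± 3.71 RPKM and IBxDU newborns 9.53 ± 2.55, the reverse of the order at 4 months. For SLC38A3 it was -0.96 ± 0.36 (adjusted p = 0.252), for SLC1A4 1.38 ± 0.58 (0.3), for SLC1A5 0.66 ± 0.31 (0.362) and for SLC1A3 0.61 ± 0.30 (0.391). The age difference of SLC38A3 was called in IBxDU pigs alone (-1.41) and not in IB pigs alone (-0.45), and by the interaction these are not shown to differ.

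**Figure D4:**
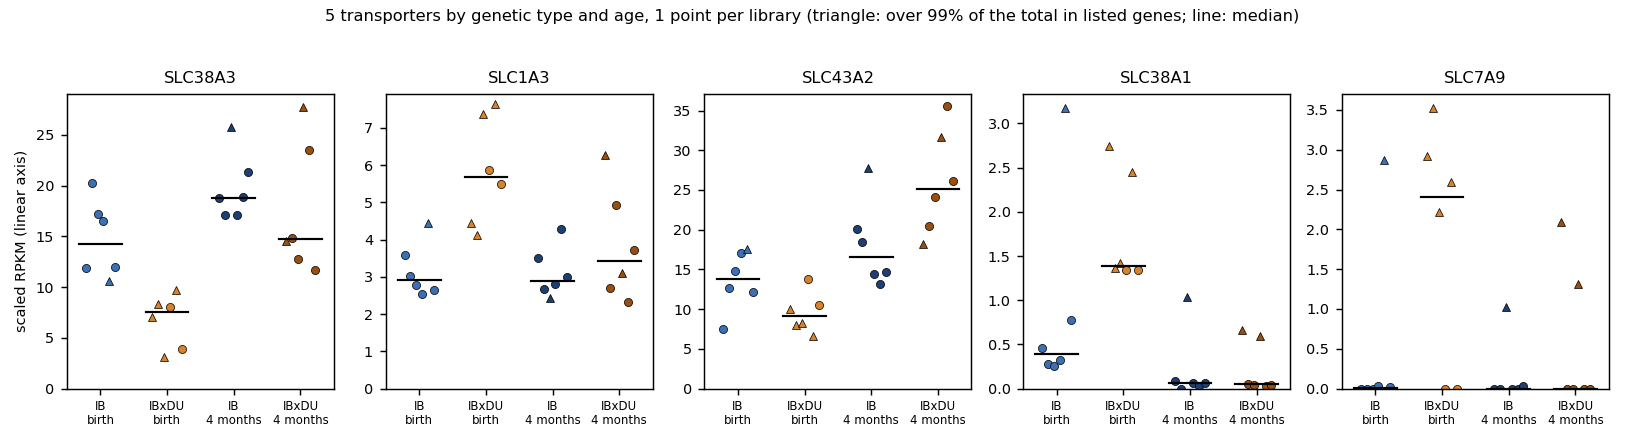
Scaled RPKM on linear axes of SLC38A3, SLC1A3, SLC43A2, SLC38A1 and SLC7A9, 1 point per library by genetic type and age, with the group median as a line and the 8 libraries of the higher share as triangles. SLC38A3 separates the newborns of the 2 types (10.6 to 20.3 in IB, 3.14 to 9.67 in IBxDU), while SLC7A9 is above 1 only in triangles.

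Read one by one, 2 IBxDU newborns, 402 and 426, held high values of several of the same genes. SLC3A2 was at 114 RPKM in newborn 402 and 189 in newborn 426, against 26 to 68.5 in the other 10 newborns. SLC1A4 (ENSSSCG00000028282, ASCT1), which exchanges serine and alanine, was at 2.79 and 6 RPKM, against 0.417 to 2.45 in the others, the highest of which was IBxDU newborn 425. SLC7A1 (ENSSSCG00000029456) was at 9.28 and 16.7 RPKM, and IB newborn 503 at 9.98 lay between them. The 3 transporters are known targets of the amino acid response, in which the transcription factor ATF4 raises amino acid uptake and synthesis genes, and 6 other genes known from this response were read in the same newborns. CHAC1, a glutathione-degrading enzyme, was at 42.9 and 143 RPKM against 1.99 to 26.6, ASNS, asparagine synthetase, at 63.7 and 69.4 against 2.88 to 34.6, and PSAT1, of serine synthesis, at 23.3 and 41 against 0.839 to 10.1. SESN2, a leucine sensor, was at 15.4 and 62.1 RPKM against 0.466 to 8.42. The remaining pair did not show this order in full. TRIB3, a pseudokinase, was at 11.1 RPKM in newborn 402 and 25.1 in newborn 426, and 4 further newborns (503, 425, 412 and, narrowly, 427) were above newborn 402. Those 4 and newborn 402 are the newborn libraries of the higher share. In the lower-share newborns other than 426 TRIB3 was at 0.167 to 3.62 RPKM. At 4 months it followed the same split, with 7.84 to 9.80 RPKM in the higher-share libraries and 0.199 to 0.416 in the others. The part of the kind of library was not tested. PHGDH, the first enzyme of serine synthesis, was at 72.9 and 54.2 RPKM, with newborns 323 (56.9) and 412 (55.5) above newborn 426. SLC38A2 did not share the order either, with 62.4 RPKM in newborn 402, the highest of all, and 28.3 in newborn 426, where only newborn 425 was lower. These newborns and genes were singled out after their values were seen, so no test is given. The 6 other genes are only some of those in the amino acid response. The part of that response in these values was not tested. Newborn 402 is a higher-share library and newborn 426 is not.

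**Figure D5:**
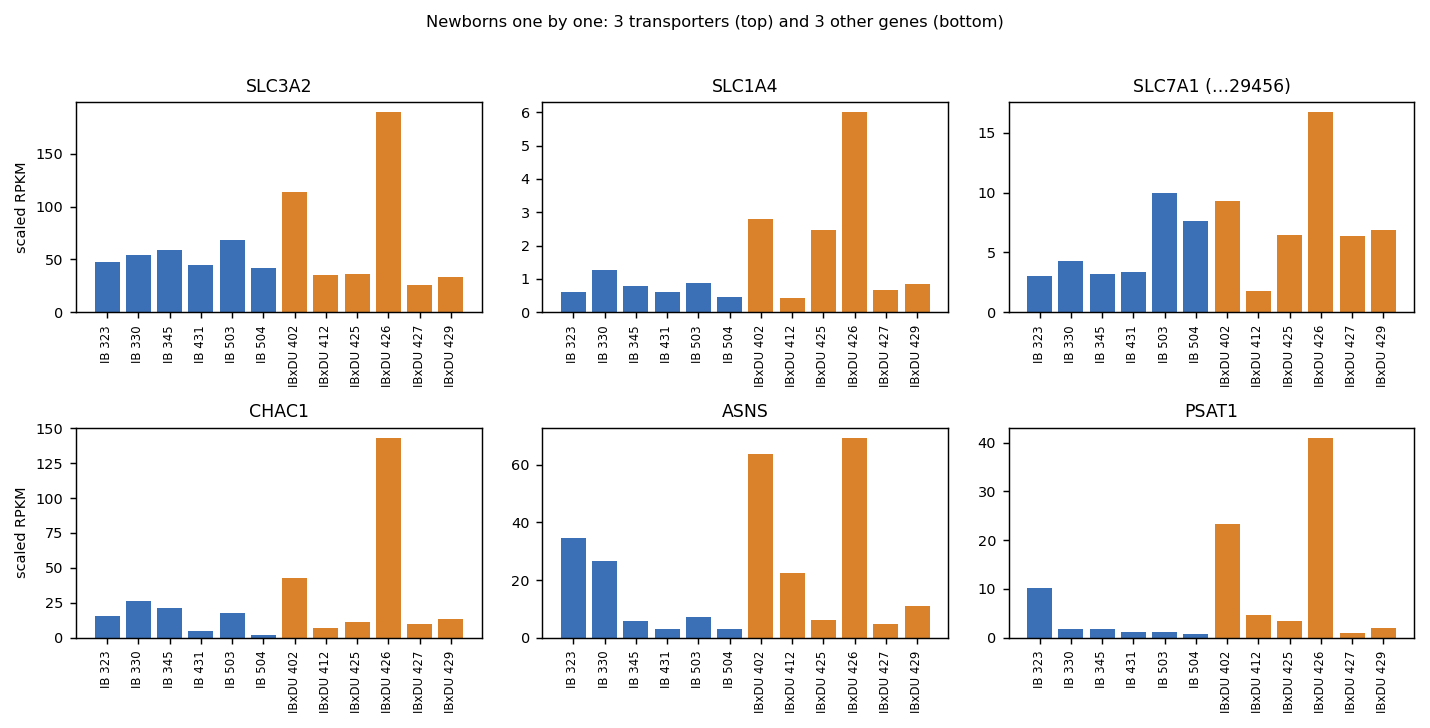
Scaled RPKM in each of the 12 newborns (bars from 0, IB in blue and IBxDU in orange, named by animal number) for the transporters SLC3A2, SLC1A4 and SLC7A1 and for CHAC1, ASNS and PSAT1. IBxDU newborns 402 and 426 are highest for SLC3A2, SLC1A4, CHAC1, ASNS and PSAT1, and 426 is highest for SLC7A1.

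A total of 19 transporter genes stayed under the filter in every comparison. Their scaled means went in both directions with age. SLC6A2, SLC1A1, SLC6A19, SLC6A20 and SLC7A3 were higher at 4 months and the others at birth, mostly on few reads. No share of all genes is given beside this. Among the more abundant of the 19 were SLC6A17, a vesicular neutral amino acid carrier of neurons, with group means of 0.127 to 0.318 RPKM, and SLC7A4 with 0.128 to 0.241. The glutamate transporters SLC1A1, SLC1A2, SLC1A6 and SLC1A7 held 203, 43, 54 and 47 reads over all 24 libraries, and the noradrenaline and dopamine transporters SLC6A2 and SLC6A3 held 81 and 22. SLC6A15, a neutral amino acid carrier known from brain, had 105 reads in newborns and 5 at 4 months, and it was called higher at birth when no filter was set. The proline carrier SLC6A7 had 65 reads in newborns, 58 of them in the 5 higher-share libraries, and SLC1A7 likewise had 40 of 44 there. SLC38A11 had 73 reads in newborns and 15 at 4 months. The carriers known from kidney and gut epithelium were at the limit of detection, with 25 reads for SLC6A19, 8 for SLC6A20, 2 for SLC7A13 and 1 each for SLC6A14 and SLC6A18. SLC7A3 and SLC7A14 held 10 and 6 reads. SLC6A14, SLC6A18 and SLC7A13 had 0 reads in all 12 libraries at 4 months.

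The genes that act on the same amino acids were read beside the carriers, as lists of symbols. Of 24 enzymes of amino acid and amine metabolism tested, 7 were called higher at birth (among them GOT1, PHGDH, BCAT1, DBT, ALDH18A1 and GATM) and 5 higher at 4 months (BCAT2, BCKDHB, BCKDK, ASL and GAMT), with a median log2 difference of -0.10 beside 0.10 for all genes and shares near the 24.5% and 20.9% of all genes. The differences of the genes in these lists are given on scaled values alone. On that scale the branched-chain aminotransferases moved in opposite directions, as the 2 cationic carriers did. Cytosolic BCAT1 had a difference of 4.15 ± 0.27 and mitochondrial BCAT2 one of -1.02 ± 0.11. GAMT, which makes the creatine that SLC6A8 carries, had a difference of -3.98 ± 0.23, with 11.7 ± 7.81 RPKM at birth and 167 ± 40.6 at 4 months (SD, n = 12), while GATM, the step before it, was called higher at birth (0.80 ± 0.15). Of 17 genes of amino acid sensing and mTORC1, 5 were called higher at 4 months (RHEB, RRAGA, RRAGD, LAMTOR2 and SESN1) and 1, CHAC1, higher at birth, beside the same shares of all genes. Of 6 other amino acid and transmitter carriers tested, SLC16A10, an aromatic amino acid carrier, was called higher at 4 months (-1.22 ± 0.23) and 5 were not called. Between genetic types at birth GLUL, glutamine synthetase, was called higher in IB newborns (-1.15 ± 0.34), the direction of SLC38A3, SESN1 was called higher in IB too (-1.15 ± 0.34), and OAT, ornithine aminotransferase, was called higher in IBxDU newborns (0.66 ± 0.19). Each of these 3 had an adjusted p of 0.139 to 0.144, and at 4 months none of the genes of the 3 lists was called between the types, where 1 in each list had an unadjusted limma p under 0.05.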

How the data were processed

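RNA of LD muscle was sequenced as mRNA libraries in 24 pigs. With CLC Genomics Workbench the authors aligned reads on the Sscrofa10.2 assembly and deposited 1 table of RPKM values for 22861 genes, from which whole reads were recovered for 17846 of 17846 genes above 0 (tolerance 0.001). Recovered totals ran from 19989846 to 35894968, and reads and read pairs could not be told apart. Depth limits precision for genes of few reads. Symbols came from a reference table (11450 IDs) and the paper's tables (414 IDs). Members and lists were chosen with earlier results of these data known. Scaling factors came from trimmed log ratios between libraries (30% cut from each end). The log2(scaled RPKM + 0.1) values were tested with limma 3.58.1 in R 4.3.3 (lmFit, eBayes with trend) on genes with a group mean over 0.5 RPKM, with Benjamini-Hochberg adjustment. Levels and tests are given in full for the leading gene of each family and for up to 8 called genes per direction with the largest fold. Alternatives were other scalings, pseudocounts (0.01, 0.5) and filters, voom, a term for the kind of library, the lower-share libraries, and leaving out each library. The code was tested on simulated data. Some genes counted in the totals are not reported here by name.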

Additional observations from a re-analysis of the deposited data

Results flagged for a closer look

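Among the 28 transporters tested, 112 groups of 6 libraries were examined for a single library far from the other 5, and 5 were found, where chance gives about 1 in 20 groups. SLC7A9 was at 2.87 RPKM in IB newborn 503 (the others at 0 to 0.0272) and at 1.02 RPKM in IB pig 903 at 4 months (the others at 0 to 0.0258). SLC38A1 was at 1.04 RPKM in the same IB pig 903, against 0 to 0.0820 in the others. SLC38A2 was at 46.9 RPKM in IBxDU pig 702 at 4 months, against 22.8 to 28.9. SLC36A2 was at 1.87 RPKM in IB newborn 323, against 0 to 0.205. The first 4 values come from libraries of the higher share and the last from 1 of the lower share. Newborn 503 and pig 903 were the only higher-share libraries of their groups. SLC7A9 over all libraries, and SLC38A1 within each age, followed that split as given above. The part of the kind of library in the 5 values was not tested.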

How the results depend on the processing

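The count of transporters higher at birth (16) ranged from 13 to 19 over the alternatives and from 15 to 16 with 1 library left out, where only SLC38A6 was lost. Quantile normalization, 1 of the other scalings, lost the calls of SLC7A10, SLC38A6 and SLC6A6 at birth. The term for the kind of library lost SLC38A6. The count higher at 4 months (6) fell to 2 without scaling, which moved the all-gene median from 0.10 to 0.91, and stayed at 6 with any 1 library left out. It was 5 with quantile normalization (SLC6A8 lost), in the lower-share libraries (SLC38A3 lost) and in IB pigs alone (SLC38A3 and SLC43A2 lost, SLC1A4 added). Between genetic types at birth (2 called) it was 6 in the lower-share libraries, which add SLC38A1, SLC1A5, SLC38A5 and SLC7A1 (ENSSSCG00000009324), 0 by adjusted p alone, and 2 to 4 with 1 library left out (4 without IB newborn 323, IB newborn 503 or IBxDU newborn 427). At 4 months (0 called) it was 1 as deposited (SLC43A2), 1 with voom (SLC7A10), 2 in the lower-share libraries (SLC7A10 and SLC43A2), and 0 to 3 with 1 library left out, the most without IBxDU pig 732 (SLC7A10, SLC3A2 and SLC38A4). The interaction (0) was 2 in the lower-share libraries (SLC38A1 and SLC7A1, ENSSSCG00000009324) and 0 with any 1 library left out. The only IBxDU newborns of the lower share were 426 and 429. The calls added there at birth and for the interaction rest on these 2 for that group. Newborn 426 was the highest of all newborns for SLC1A5 (27.8 RPKM), SLC38A5 (11.1 RPKM) and SLC7A1 (ENSSSCG00000009324, 16.2 RPKM). The causes were not tested. No result of a single gene reversed a call. No paired analysis was possible because each animal gave 1 library and the animal numbers of the groups do not repeat.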
